A study of Rattus norvegicus with 16 samples.

Results

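Dusp6, Mapk7, Nras and Creb1 are 4 genes of the MAP kinase signalling pathway, and 5 of the 972 gene probe sets on the array carried one of these symbols alone. Every probe set whose platform symbol was one of the 4 was taken. The genes themselves were chosen by their differences between mefloquine and DMSO in an earlier look at the same arrays, so those differences are given here as a description, without a test. Dusp6, Nras and Creb1 each had 1 probe set and Mapk7 had 2, one of which stayed below 0 on all 16 arrays. The other 4 probe sets were bright enough to enter the fit over all probe sets.

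The cells were NG108, a line widely described as a fusion of mouse neuroblastoma and rat glioma cells and given in the labels as a rat neuronal culture. Control cultures received 0.25% dimethyl sulfoxide (DMSO), and treated cultures received 4400 ng/ml of the antimalarial mefloquine, both for 2 hours. There were 8 samples in each group, each hybridised to 1 Affymetrix rat array, and whether the mefloquine cultures also held DMSO is not stated. Nothing in the labels says that the samples were separate cultures, so the spread between them may be technical. The probes are for rat sequences, and how well they report transcripts from the mouse parent was not tested.

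In this pathway, growth factor receptors load Ras proteins such as Nras with GTP, and Ras then starts a relay of kinases that ends in a MAP kinase. The MAP kinases enter the nucleus and act, directly or through further kinases, on transcription factors such as Creb1. Dual-specificity phosphatases close the loop: Dusp6 removes activating phosphates from MAP kinases of the ERK branch, and its own gene is a known target of ERK signalling, so that its transcript serves as a readout of the pathway in many cells. Mapk7 encodes ERK5, a large MAP kinase with a transcription-activating tail. In neurons the pathway carries signals from neurotrophins and from electrical activity to gene expression.

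The start regions of Dusp6 and Creb1 are shown because the first belongs to the member with the largest difference and the second holds repeated half-sites for the CREB protein itself. Each is 300 bases from RefSeq's GRCr8 assembly, running from 250 bases before the start site to 50 bases from it onward, printed 5′ to 3′ on the gene's strand. Capitals mark the motifs found.
Dusp6, chr7:35979354-35979653, plus strand: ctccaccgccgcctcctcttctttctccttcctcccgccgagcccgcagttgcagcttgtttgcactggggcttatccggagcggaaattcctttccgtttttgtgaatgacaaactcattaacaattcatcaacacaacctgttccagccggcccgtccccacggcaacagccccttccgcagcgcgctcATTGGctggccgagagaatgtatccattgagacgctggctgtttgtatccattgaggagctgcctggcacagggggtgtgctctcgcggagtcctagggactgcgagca
Creb1, chr9:73397259-73397558, plus strand: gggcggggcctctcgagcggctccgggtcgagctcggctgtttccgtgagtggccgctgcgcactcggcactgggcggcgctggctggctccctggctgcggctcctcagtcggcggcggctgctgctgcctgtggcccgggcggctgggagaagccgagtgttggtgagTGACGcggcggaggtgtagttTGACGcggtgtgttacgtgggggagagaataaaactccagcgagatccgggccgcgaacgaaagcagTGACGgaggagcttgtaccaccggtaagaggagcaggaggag

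All 4 genes were found in the RefSeq table, Creb1 with 2 windows, and both strands of each window were searched. The half-site of the cyclic AMP response element, TGACG, occurred 3 times in the Creb1 window shown, at 80 and 59 bases before the start site and 8 bases after it. It occurred 1 time in the Nras window and in neither the Dusp6 nor the Mapk7 window. It was present at least once in 21.2% of the 33469 windows of this length, and how many held it 3 times was not counted. The Creb1 window shown had 68% G and C bases, against a median of 51.7% over all windows. The full palindrome TGACGTCA, which contains the half-site on each strand, was in none of the members' windows and in 1.83% of all windows. The ETS-type motif CCGGAAG was found in the Nras and Mapk7 windows (8.75% of all windows), and the E-box CACGTG in that of Nras (6.42%). The CCAAT box was found in the Dusp6 and Mapk7 windows (37.49%), 59 bases before the start site for Dusp6, on the opposite strand. The second Creb1 window held none of these motifs. These matches describe letters, not binding.

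Of the 4 members, Dusp6 had the largest difference between the groups, being 1.92-fold lower on average with mefloquine. Mapk7 and Nras were also lower on average, by 1.28-fold and 1.21-fold, and Creb1 was 1.10-fold higher. None of these 4 passed limma's test over all 545 tested probe sets, of which 7 (1.28%) did. Nothing can be read from that count, since the genes were chosen on this contrast. For every one of them the mefloquine values overlapped those of DMSO.

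Values are intensities on the authors' linear scale. A floor of 426.5 intensity units, the 25th percentile of all positive values, was set under them before log2 was taken, so fold changes are ratios of geometric means on a floored scale and can understate change in dim probe sets. Across the arrays the median gene probe set had an intensity of 461 to 665, and 495 to 552 probe sets lay above the floor. The arrays DMSO 3 and mefloquine 1 and 2 stood apart, with median correlations to the other arrays of 0.855, 0.901 and 0.913, against 0.925 to 0.945 for the other 13 arrays. They also had the strongest hybridisation spike-ins, with a mean log2 intensity of 14.88 to 15.44 against 13.16 to 14.40. DMSO 3 had a 3′ over 5′ ratio of 21.3 for beta-actin, where no other array exceeded 2.67. The difference of each member is therefore also given without these 3 arrays, as are those of some of the other genes.

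**Figure D1:**
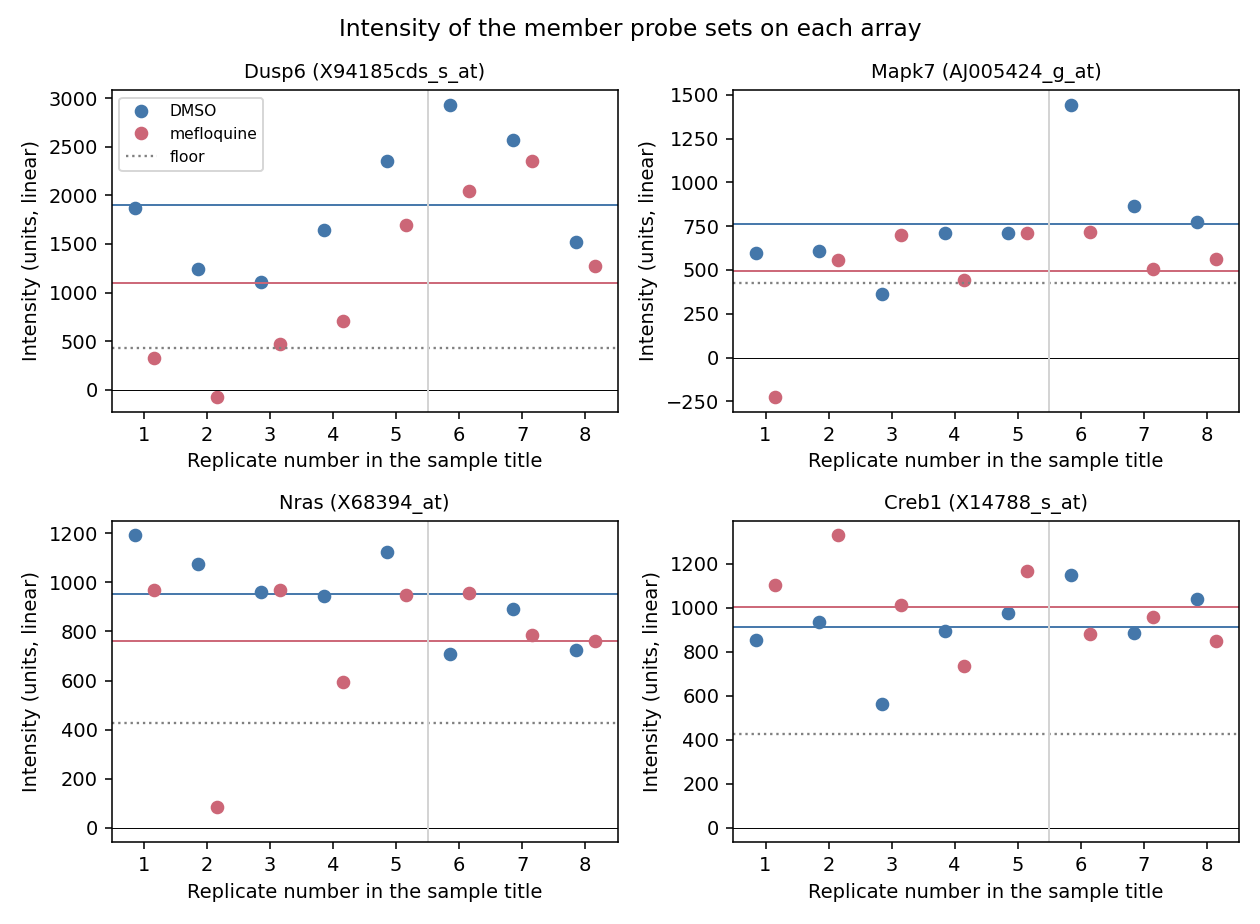
Intensity of each member's probe set above background (vertical axis, linear units) against the replicate number in the sample title (horizontal axis), with DMSO arrays in blue and mefloquine arrays in red. Horizontal lines are group means, the dotted line is the floor of 426.5 and the vertical line separates replicates 1 to 5 from 6 to 8. Mefloquine 1 to 4 lie below every DMSO array for Dusp6, while mefloquine 5 to 8 lie within the DMSO range.

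Nras, the small GTPase near the top of the relay, was measured by probe set X68394_at. Its DMSO values ranged from 708 to 1192 with a median of 954. Its mefloquine values ranged from 85.0 to 971 with a median of 869. The low end of the mefloquine group was 1 array, mefloquine 2 at 85.0, followed by mefloquine 4 at 596, and the other 6 lay inside the DMSO range. Means were 953 ± 176 and 760 ± 304 (SD, n = 8 each), which differ by -0.28 ± 0.18 on the log2 scale (SE). Without mefloquine 2 the log2 difference was -0.15, and without the 3 arrays that stood apart it was -0.18. Replicates 1 to 5 alone gave -0.51 for Nras, and replicates 6 to 8 alone gave 0.11.

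Mapk7, the kinase ERK5, had a usable signal only by AJ005424_g_at. By that probe set the DMSO arrays ranged from 365 to 1444 with a median of 710, and the mefloquine arrays from -227 to 719 with a median of 561. The highest value by far was DMSO 6 at 1444, with the next DMSO array at 867, and the lowest was mefloquine 1 at -227. The DMSO mean lay above DMSO 1 to 5, which read 365 to 711, and above all 8 mefloquine arrays. Of the mefloquine arrays, 7 lay within the DMSO range. Means were 760 ± 314 in DMSO cells and 497 ± 310 in mefloquine cells (SD, n = 8 each), and the log2 difference was -0.35 ± 0.20 (SE). It was -0.21 without DMSO 6 and -0.39 without the 3 arrays that stood apart. Replicates 1 to 5 gave -0.12 and replicates 6 to 8 gave -0.75 for Mapk7, the reverse order from Nras. The companion probe set AJ005424_at, named for the same accession, read between -2094 and -674 over all arrays and says nothing about the transcript.

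Dusp6, the phosphatase of the ERK branch, was measured by X94185cds_s_at. On DMSO arrays 1 to 8 it read 1876, 1239, 1109, 1647, 2351, 2935, 2570 and 1526. On mefloquine arrays 1 to 8 it read 326, -79.5, 474, 703, 1693, 2050, 2351 and 1276. Of the mefloquine arrays 4, numbers 1 to 4, lay below the lowest DMSO array and the other 4 lay within the DMSO range. Only mefloquine 1 and 2 were under the floor. Having at least 4 mefloquine arrays below every DMSO array was seen for 28 of the 545 tested probe sets (5.14%), a count taken after the Dusp6 values had been seen.

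The mean of Dusp6 was 1907 ± 654 in DMSO cells and 1099 ± 878 in mefloquine cells (SD, n = 8 each), which differ by -0.94 ± 0.38 on the log2 scale (SE). Leaving out any 1 array kept the log2 difference between -1.13 and -0.77. It was -0.66 without the 3 arrays that stood apart. Replicates 1 to 5 gave -1.32, with DMSO values of 1109 to 2351 against mefloquine values of -79.5 to 1693. Replicates 6 to 8 gave -0.30, with 1526 to 2935 against 1276 to 2351. Both groups had more Dusp6 signal in replicates 6 to 8 than in 1 to 5, at means of 2344 against 1644 in DMSO cells and 1892 against 623 in mefloquine cells.

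Dusp6 was also the member whose arrays differed most from one another under the drug. The SD of its log2 values was 0.50 among DMSO arrays, above that of 65.0% of the tested probe sets, and 1.05 among mefloquine arrays, above that of 97.4% of them. The medians over all tested probe sets were 0.41 and 0.36. For Nras the SDs were 0.28 and 0.43, for Mapk7 0.51 and 0.30, and for Creb1 0.31 and 0.27, so that the higher group was not the same for all members.

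**Figure D2:**
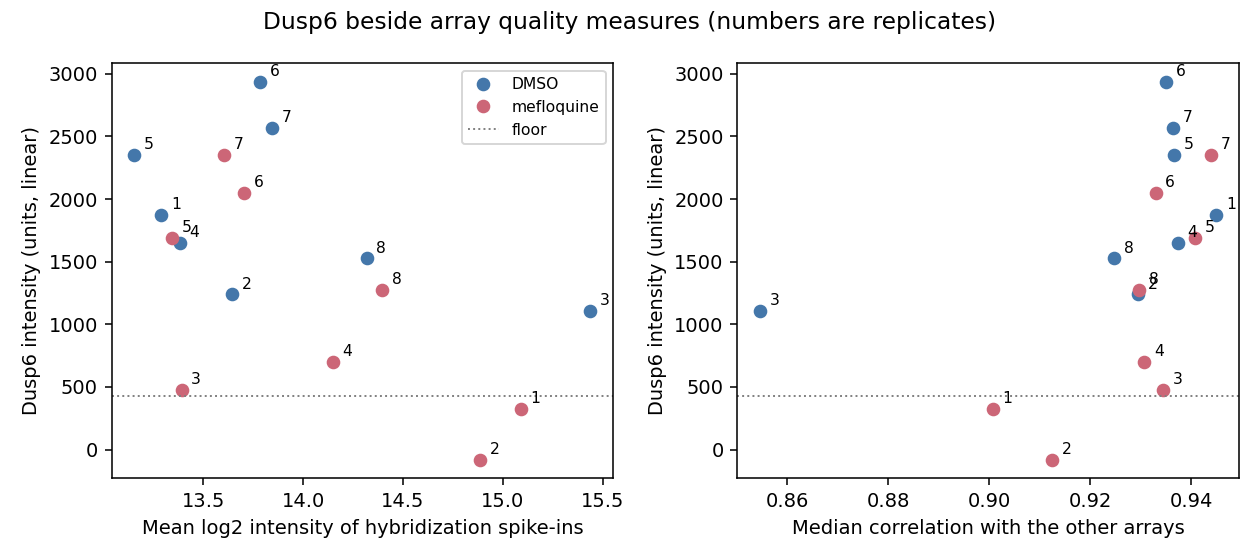
Dusp6 intensity (vertical axis, linear units) of each array against the mean log2 intensity of its hybridisation spike-ins (left) and the median of its correlations to other arrays (right), with replicate numbers beside the points, DMSO in blue, mefloquine in red and the floor dotted. Mefloquine 1 and 2 combine low Dusp6 with spike-ins at 15.09 and 14.88, while mefloquine 3, at 474, has spike-ins at 13.39.

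Array quality moved with part of this pattern. Among the low Dusp6 arrays, mefloquine 1 and 2 had the strongest spike-ins of their group (15.09 and 14.88) and the lowest correlations with the rest. Mefloquine 3 and 4 had spike-ins of 13.39 and 14.15 and correlations of 0.934 and 0.931, inside the ranges of the DMSO arrays other than DMSO 3 (13.16 to 14.32 and 0.925 to 0.945). DMSO 3, with the strongest spike-ins of all (15.44), had the lowest Dusp6 value of its group, at 1109. The part of array quality in the Dusp6 values was not tested.

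Creb1, the transcription factor at the nuclear end of the pathway, was measured by X14788_s_at and was above the floor on all 16 arrays. DMSO arrays ranged from 561 to 1147 with a median of 916, and mefloquine arrays from 735 to 1330 with a median of 985. The lowest value belonged to DMSO 3 at 561, while mefloquine 2 and 5, at 1330 and 1166, were the only arrays above the highest DMSO array. Means were 912 ± 171 and 1004 ± 191 (SD, n = 8 each), which differ by 0.14 ± 0.15 on the log2 scale (SE). Without DMSO 3 it was 0.05, and without the 3 arrays that stood apart it was -0.05. For Creb1, replicates 1 to 5 gave 0.34 and replicates 6 to 8 gave -0.19.

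**Figure D3:**
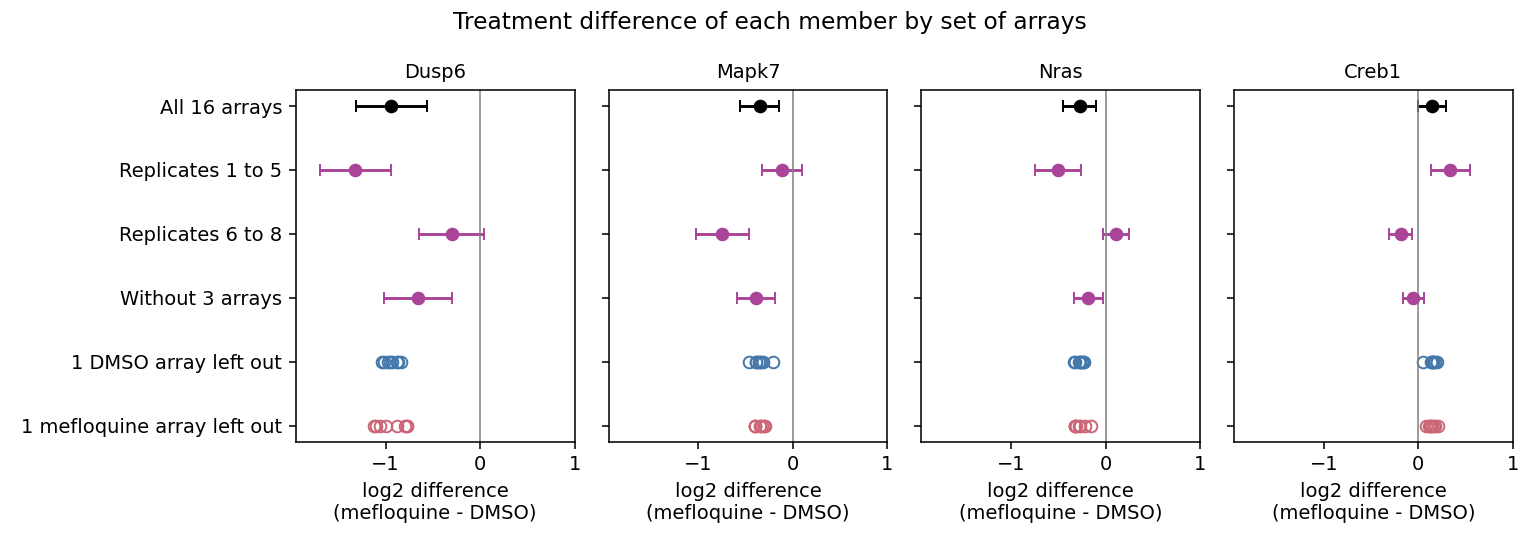
Log2 difference between mefloquine and DMSO (horizontal axis) for each member, with bars of 1 SE for all 16 arrays, replicates 1 to 5, replicates 6 to 8 and the 13 arrays left without DMSO 3 and mefloquine 1 and 2; open circles each leave out 1 array. The points of Dusp6 and Mapk7 stay below 0 throughout, and those of Nras and Creb1 lie on both sides of 0. The bars of Dusp6 in replicates 6 to 8 and of Mapk7 in replicates 1 to 5 cross 0.

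The 2 ranges of replicate numbers thus gave different sizes for every member, and opposite signs for Nras and Creb1. The ranges were chosen with earlier results of these data known. The change of the treatment effect from one range to the other was tested with limma over all probe sets. No probe set passed (0 of 545, 0%), with 23 at an unadjusted p under 0.05, where about 5% of the 545 would be so by chance. The change in effect from the first range to the second was 1.02 ± 0.58 for Dusp6, -0.63 ± 0.35 for Mapk7, 0.61 ± 0.35 for Nras and -0.53 ± 0.30 for Creb1 (log2, SE). Each had a limma adjusted p of 0.99. What the ranges stand for is not in the labels.

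The rest of the pathway was followed through role lists that together held 165 genes. Of these, 44 had a probe set of their own here and 32, members included, were tested. The genes Jun and Ddit3 rose, 0 fell and 30 did not pass, where 1.1% of all tested probe sets rose and 0.183% fell. At such shares a count of 0 in a short list, as in those below, says little about its genes. The members among the 30 were chosen on this contrast. The median log2 difference of the 32 was 0.03, and of the 28 without the members 0.06, beside -0.01 over all tested probe sets. For 24 of those 28 genes (85.7%) the 95% interval lay inside a 2-fold change in either direction, close to the 87.7% of all tested probe sets. Apart from the members and Junb, the genes that did not pass had limma adjusted p-values from 0.982 to 0.998.

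At the cell surface, 3 of the 27 growth factors and receptors were tested and 0 passed. The angiogenic factor Vegfa differed by 0.22 ± 0.36, the insulin-like growth factor receptor Igf1r by -0.05 ± 0.32 and the fibroblast growth factor receptor Fgfr1 by -0.13 ± 0.25 (log2, SE). The other Vegfa probe set was at 0.49. The main one was at 0.96 in replicates 1 to 5, -1.01 in replicates 6 to 8 and -0.18 without the 3 arrays that stood apart, where Igf1r was at -0.31 and Fgfr1 at 0.15. Probe sets for the receptors Egfr, Met and Kdr were too dim to test.

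Among Ras proteins and their partners, 0 of the 3 tested genes passed. Hras, the other gene for a Ras protein proper tested here, stood at 1721 ± 716 in DMSO cells and 2109 ± 634 in mefloquine cells (SD, n = 8 each), which differ by 0.37 ± 0.27 on the log2 scale (SE), opposite in sign to Nras. Without the 3 arrays that stood apart the Hras difference was -0.02. Cdc42, a related GTPase of the actin skeleton, differed by -0.10 ± 0.10 by its brightest probe set, and its other 4 probe sets lay between 0.02 and 0.22.

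In the kinase relay, 0 of 6 kinases of the first tier and 0 of 3 MAP kinase kinases passed. The JNK-pathway kinase Map3k1 differed by 0.38 ± 0.26, Map3k12, a kinase of the axonal injury response, by 0.23 ± 0.26 and the Cdc42-activated kinase Pak2 by -0.02 ± 0.12 (log2, SE). Map2k1 and Map2k2, the MAP kinase kinases of the ERK branch, differed by -0.10 ± 0.18 and -0.35 ± 0.24, and Map2k5, the kinase that activates Mapk7, by 0.05 ± 0.12. Other tested probe sets of Map2k1 were at 0.18 and 0.02, and that of Map2k2 at 0.02. The companion of the main Map2k2 probe set, named for the same sequence, carries the symbol Eef2 and was at 0.41 ± 0.33. Which gene the main one reports was therefore left uncertain. Without the 3 arrays that stood apart Map3k12 was at -0.03, Map2k1 at 0.13 and Map2k2 at 0.06. On DMSO 3 Map2k2 was the highest and Map3k12 the lowest of the DMSO values.

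Of the 6 tested MAP kinases 0 passed, Mapk7 included. Mapk6, an atypical family member, differed by 0.07 ± 0.11, the stress kinase Mapk14 (p38 alpha) by 0.01 ± 0.12 and its relative Mapk12 by 0.16 ± 0.35 (log2, SE). Without the 3 arrays that stood apart Mapk6 was at -0.00, Mapk14 at -0.14 and Mapk12 at 0.32. The DMSO mean of Mapk14 was 3508 ± 458 and its mefloquine mean 3546 ± 516 (SD, n = 8 each). Of the other Mapk14 probe sets tested, 2 were at 0.22 and 0.31 and 1 was at -0.22.

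Dusp6 had 2 tested relatives among the phosphatases, and neither passed. The nuclear phosphatase Dusp5 stood at 723 ± 494 in DMSO cells and 732 ± 707 in mefloquine cells, and the cytoplasmic phosphatase Dusp7 at 630 ± 287 and 703 ± 269 (SD, n = 8 each). Their log2 differences were 0.23 ± 0.31 and 0.13 ± 0.25 (SE), both above 0 where that of Dusp6 was below it. Without the 3 arrays that stood apart they were 0.45 and 0.01, and in replicates 6 to 8 Dusp5 was at -0.13. Dusp4 was above the floor on 2 of 16 arrays and was not tested.

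Downstream of the MAP kinases, the p38-activated kinase Mapkapk3 differed by 0.21 ± 0.33 and the kinase Gsk3b by 0.18 ± 0.25, and 0 of these 2 passed. Other probe sets of Mapkapk3 were at 0.04 and -0.16, and Gsk3b was at 0.00 without the 3 arrays that stood apart. Among 6 tested nuclear targets, Jun and Ddit3 rose, by 1.83 ± 0.29 and 2.22 ± 0.26 (log2, SE), with limma adjusted p-values of 0.0012 and 9.28e-05. In replicates 6 to 8 alone, with 3 arrays per group, neither passed, with log2 differences of 1.47 for Jun and 2.02 for Ddit3. Junb was 0.95 ± 0.25 higher without passing (limma adjusted p = 0.0981), and 0.60 higher without the 3 arrays that stood apart. Fos, whose gene like that of Dusp6 is a known target of ERK signalling, differed by -0.22 ± 0.18. Of 7 tested genes from a list of CREB targets, which shares Fos and Ddit3 with the nuclear list, 1 rose, again Ddit3, and 6 did not pass. The list's median was -0.03, and Pcna, the replication clamp, differed by 0.17 ± 0.17.

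**Figure D4:**
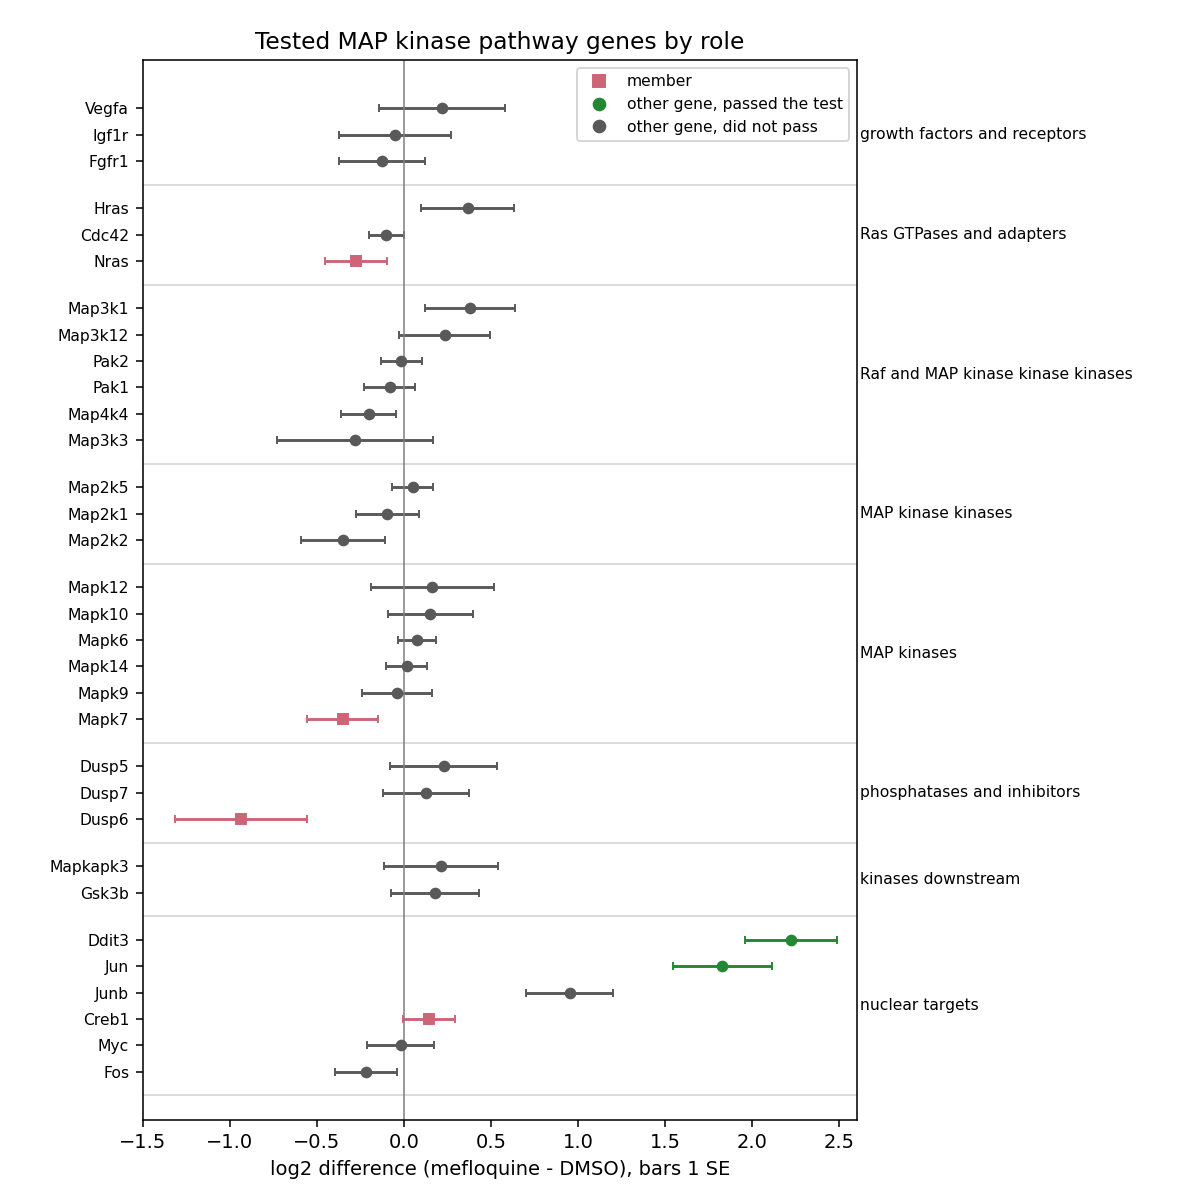
Log2 difference between mefloquine and DMSO with bars of 1 SE (horizontal axis) for the 32 tested pathway genes, 8 arrays per group, grouped by role; each gene is shown by its brightest tested probe set, the members as squares and the genes that passed limma's test in green. The green points are Jun at 1.83 and Ddit3 at 2.22; Dusp6 at -0.94 is the lowest point.

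The genes with the array profile most like each member's were sought among 459 other singly named probe sets, by the correlation over 16 arrays after each group's mean had been removed. For Dusp6 these were the thyroid hormone receptor Thra (Pearson r = 0.85, Spearman rho = 0.86), the carbonyl reductase Cbr1 (r = 0.80, rho = 0.85) and the cell cycle kinase Wee1 (r = 0.80, rho = 0.82), where the median r over the 459 was 0.08. On the 13 arrays without DMSO 3 and mefloquine 1 and 2 the r of these 3 genes was 0.78, 0.66 and 0.70. For Mapk7 the nearest were the transporter Abcc2 (r = 0.79), the sodium pump subunit Atp1b2 (r = 0.77) and the cyclooxygenase Ptgs2 (r = 0.76). Nras was nearest to the kinase Pak1 (r = 0.83), and then to Aurkaip1 (r = 0.61) and the replication factor subunit Rfc4 (r = 0.56), whose rho was 0.26 and 0.18. Creb1 was nearest to the death-promoting Bcl2l11 (r = 0.78), the nuclease Dnase1 (r = 0.77) and the respiratory chain subunit Uqcrc2 (r = 0.74). In the same order, r on the 13 arrays was 0.67, 0.78 and 0.66 for the Mapk7 genes. It was 0.74, 0.27 and 0.21 for the Nras genes, and 0.53, 0.52 and 0.34 for the Creb1 genes. These profiles share the same arrays, including those that stood apart, and the part of array quality in them was not tested. Of the 12 genes, 2 (Abcc2 and Atp1b2) were again among the nearest 3 on the 13 arrays. These correlations are descriptions of the nearest among many and carry no test.

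None of the 15 neuronal markers listed for checking the cell label had a probe set of its own here, so the label was not checked by them. Of 13 glial markers, Vim and Clu were measured, with log2 differences of -0.08 ± 0.12 and -0.32 ± 0.21 (SE) that did not pass. Col1a1, a fibroblast marker, differed by -0.00 ± 0.14 and Cyp2e1, a liver marker, by 0.09 ± 0.29, while the microglial and endothelial lists had no probe set. On bulk RNA, fewer cells of a kind and less RNA per cell cannot be told apart.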

How the data were processed

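Per the labels, 10 µg of total RNA extracted with RNA STAT-60 was hybridised to each of 16 arrays, and the deposited intensities were scaled by the authors with the standard chip scaling factors and not transformed further. No scanner software or target intensity is given in the labels used here. Of the 1031 probe sets, 59 were controls. Of the 972 gene probe sets, 821 had 1 symbol in the platform annotation, 38 several and 113 none. The table names no genome build.

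Sample titles gave the groups and the replicate numbers. Intensities were floored at 426.5 (25th percentile of positive values) and put on a log2 scale. The 545 probe sets that exceeded this value on 8 or more of the 16 arrays were fitted with limma 3.58.1 (lmFit, eBayes) in R 4.3.3 with treatment as the only term, and called at a Benjamini-Hochberg adjusted p under 0.05. The fit was run on simulated data with independent noise of a fixed size and no floor. That run checks the code, not how well the fit performs on arrays like these. A gene entered a list by its brightest tested probe set. Other genes named were the up to 3 brightest of each list, any that passed, and the 3 nearest to each member by profile. The members, lists, replicate ranges and arrays that stand apart were chosen with earlier results of these data known. The number of arrays limits the precision.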

Additional observations from a re-analysis of the deposited data

Results flagged for a closer look

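Dixon's test for a single extreme value was run on each member and each named pathway gene in either group of 8 arrays. It marked 7 of 54 tests (13.0%), on 27 probe sets, where about 5% would be marked by chance, and DMSO 3 was the array in 6 of them.

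Among the members, Creb1 was low on DMSO 3, at 9.13 on the log2 scale, where the other DMSO arrays lay between 9.74 and 10.16. On the same array Cdc42 was low at 14.07 (others 14.38 to 14.62), the kinase Map3k12 at 10.46 (others 12.19 to 12.76) and Mapk14 at 11.36 (others 11.68 to 11.94). Map2k2, by the probe set whose companion carries the symbol Eef2, was high there at 13.18 (others 11.67 to 12.30). Ddit3 was also high there, at 10.72 (others 8.74 to 9.57). Vegfa was at the floor of 8.736 on DMSO 2 (others 9.89 to 10.91). No value of Dusp6, Mapk7 or Nras stood out by this test. The lowest Nras value, on mefloquine 2, and the lowest Mapk7 value, on mefloquine 1, were set to the floor in this test.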

How the results depend on the processing

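None of the 4 members passed limma's test under any setting that kept it, and nothing can be read from that, since they were chosen on this contrast. The settings reuse the same arrays, so a sign that holds across them is a description and not a test. Dusp6 stayed below 0 in all 31 settings, from -1.32 in replicates 1 to 5 to -0.30 in replicates 6 to 8, and Mapk7 in all 30, from -0.75 to -0.12. In replicates 6 to 8 alone, with 3 arrays per group, Nras was at 0.11 and Creb1 at -0.19. With 1 array left out, Dusp6 ranged from -1.13 to -0.77, Mapk7 from -0.46 to -0.21, Nras from -0.33 to -0.15 and Creb1 from 0.05 to 0.20. A floor at the 10th percentile moved Mapk7 to -0.51 and Nras to -0.46. A floor at the 40th percentile moved Dusp6 to -0.57, Nras to -0.12 and Creb1 to 0.09 and left Mapk7 out. With all 16 arrays required above the floor, Creb1 alone of the members could be fitted. The GAPDH ratio as a covariate gave -1.07 for Dusp6 and 0.05 for Creb1, and array weights gave 0.02 for Creb1.

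The number of probe sets called, 7, was 4 with quantile normalization, with a floor at the 10th or 40th percentile and with an offset in place of the floor. It was 3 with all 16 arrays above the floor and 1 in replicates 6 to 8, and between 4 and 8 with 1 array left out. The count of pathway genes called, 2, was 1 with all 16 arrays above the floor, 0 in replicates 6 to 8 and 4 over every tested probe set, 3 of them for Jun, and between 2 and 3 with 1 array left out. The cause of these moves was not tested. With the replicate number as a block, 8 probe sets and 3 pathway genes were called, the third being Junb (limma adjusted p = 0.0359). The labels do not say that the numbers mark pairs, and the rule used here asks for a correlation over 0.1 for every number. Same-numbered arrays of the 2 groups correlated in their deviations at 0.06 to 0.59, over 0.1 for 7 of 8 numbers. Numbers 1, 2 and 3, which hold the arrays that stood apart, were at 0.06, 0.15 and 0.11. Number 4 was at 0.19, and numbers 5 to 8 were at 0.45 to 0.59. By number, the DMSO and mefloquine values correlated at 0.81 for Dusp6, 0.17 for Mapk7, -0.10 for Nras and -0.14 for Creb1. Of the 16 arrays, 4 correlated best with their own number. The numbers may therefore pair the samples in part, and the rule, which number 1 alone failed, left them unused as pairs. Under the block the Dusp6 difference was -0.94 ± 0.22 (SE), and it did not pass limma's test. Since Dusp6 was chosen on this contrast, that difference is a description.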
